A study of Bos taurus with 9 samples.

Results

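Forkhead transcription factors are DNA-binding proteins that share a winged-helix domain, named after the fly gene fork head. Their rows were picked from RNA sequencing of bovine embryos by symbol, as every gene whose name starts with FOX, a letter from A to S and a digit. This gave 25 genes from 15 subfamilies, among 16129 genes that all 9 libraries list. The symbol stood in the files of all 3 groups for 20 of them, and in the morula files alone for 5 (FOXI3, FOXK1, FOXK2, FOXO1 and FOXP2), whose 8-cell rows were joined by gene identifier. RefSeq annotation of the ARS-UCD2.0 assembly names 45 forkhead genes, of which the 20 with no such row were not analysed here.

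All embryos were cattle (Bos taurus) clones from somatic cell nuclear transfer, SCNT, for which a body cell is fused with an egg that has lost its own chromosomes. The donors of nuclei were fibroblasts from 1 female Holstein fetus. The first group, 3 libraries, holds morulae from embryos injected with mRNA for bovine wild-type KDM6A, an enzyme that removes the repressive H3K27 methyl mark, 1 h after activation. The second, 3 libraries, holds control morulae that received no injection, so the act of injection and the mRNA cannot be told apart. Morulae were collected on day 5, and each library is a pool of 5. The third group, 3 libraries, holds uninjected SCNT 8-cell embryos, which the labels place in an earlier series, so that the stage and the series of origin cannot be told apart. Their pool size was not given. No label says that the libraries of a group were made on different days, so the p-values reflect the scatter of these libraries only, and that scatter may be technical. KDM6A itself was at 35.65, 87.58 and 79.44 FPKM in KDM6A morulae, at 10.72, 13.86 and 10.74 in control morulae and at 6.13, 9.41 and 10.73 in 8-cell embryos, so it was highest in the injected libraries. These values do not separate injected mRNA from the embryo's own transcript.

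Levels are in FPKM, read fragments per kilobase of a gene's transcript after scaling for the library, which allow levels to be set side by side between genes. Depth is unknown, so precision comes from the spread between libraries. Total FPKM ran from 913646 to 936537 in KDM6A morulae, from 927096 to 1022423 in control morulae and from 820346 to 860798 in 8-cell embryos. The highest total, of control replicate 1, includes 3038 rows with no gene identifier, which were left out of all else. Differences below are on the log2(FPKM + 1) scale, from limma fitted on every gene that reached 1 FPKM in 3 or more libraries of the 6 in a comparison, with Benjamini-Hochberg adjustment over all of them. A gene counts as changed when its adjusted p is under 0.05. In bulk samples, fewer cells of a type and less RNA per cell cannot be told apart.

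As background, the family reaches its targets by several routes. FoxO factors carry insulin and stress signals: they work in the nucleus until the kinase AKT phosphorylates them and 14-3-3 proteins hold them in the cytoplasm. FOXM1 drives genes of the G2 and M phases of the cell cycle, FOXH1 carries the Nodal signal together with SMAD proteins, and FOXA factors open closed chromatin in endoderm. In mouse, Foxo3 keeps resting oocytes from being activated, and Foxd3 is needed in the epiblast.

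Few forkhead genes were expressed at any stage. A group mean of at least 1 FPKM was reached by 10 of the 25 genes (40%) in KDM6A morulae, by 7 (28%) in control morulae and by 7 (28%) in 8-cell embryos. Over all 16129 genes, the shares were 59.69%, 59.4% and 56.68%. Counted library by library, 8, 11 and 9 forkhead genes were at 1 FPKM or more in KDM6A morulae, 9, 6 and 5 in control morulae and 7, 7 and 7 in 8-cell embryos. FOXK2, FOXN2, FOXO3 and FOXR1 reached the mean in all 3 groups. The 10 genes of KDM6A morulae comprised the 7 of control morulae (FOXI3, FOXJ2, FOXK2, FOXN2, FOXO3, FOXP1 and FOXR1) with FOXH1, FOXJ3 and FOXM1. These 3 lay close to the limit, at means of 1.38, 1.10 and 1.22 FPKM in KDM6A morulae and 0.667, 0.877 and 0.947 in control morulae, and their libraries overlapped between the groups. The difference in number between the morula groups rested on that limit: at 2 FPKM there were 5, 5 and 6 genes in KDM6A morulae, control morulae and 8-cell embryos, and at 0.5 FPKM 11, 11 and 8. In 8-cell embryos, FOXO1, FOXP2 and FOXJ3 took the places of FOXI3, FOXJ2 and FOXP1.

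**Figure D1:**
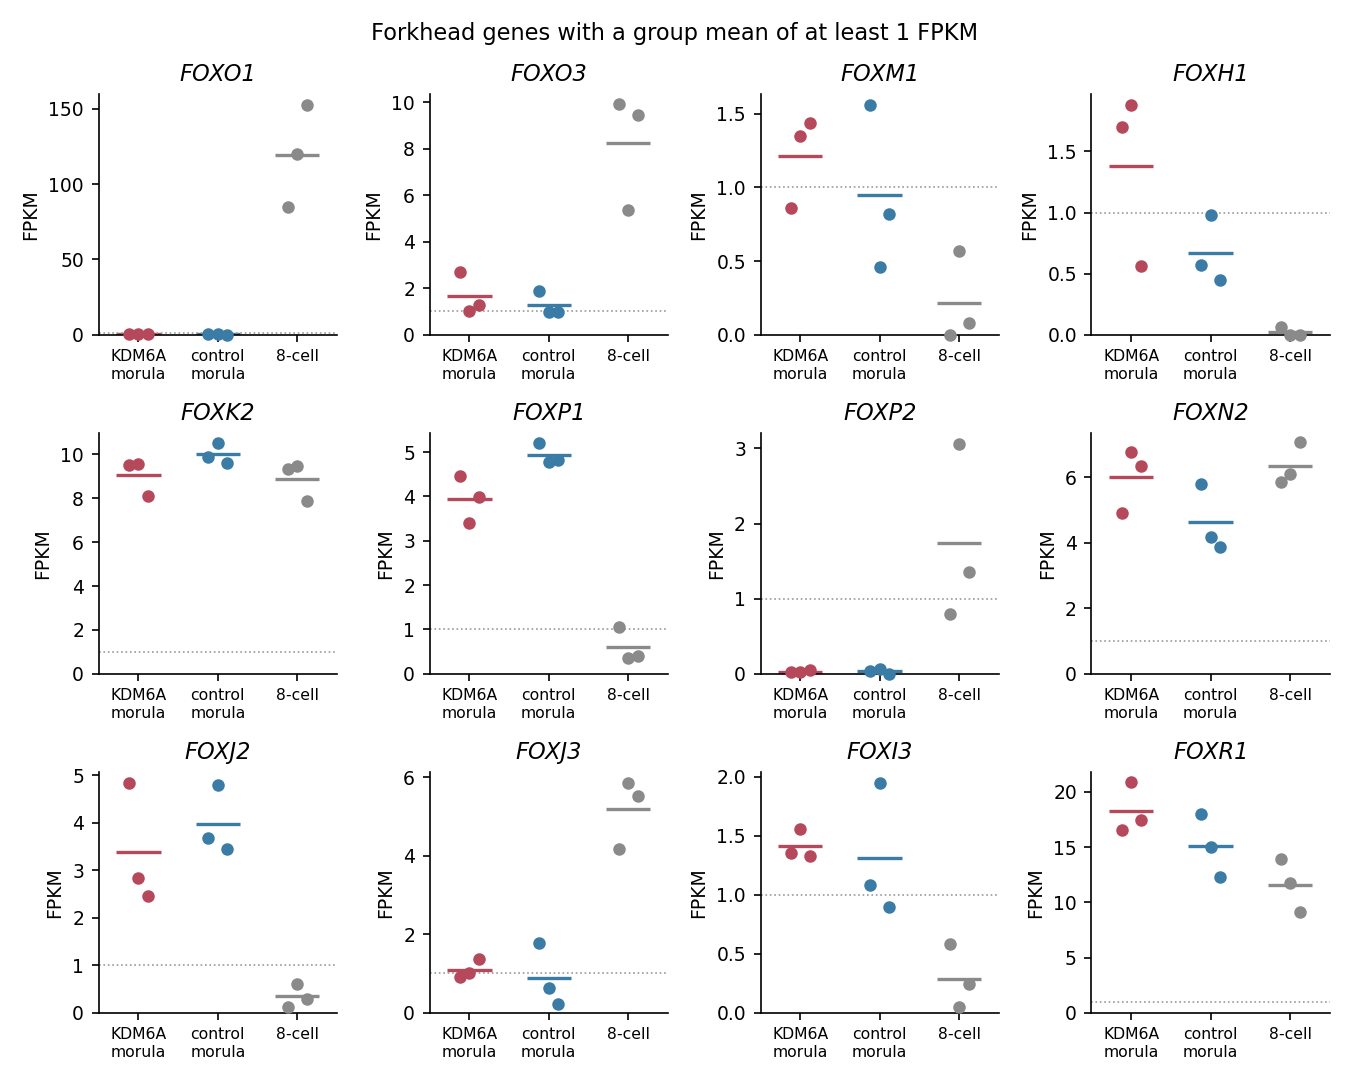
FPKM of the 12 forkhead genes with a mean of at least 1 FPKM in any group, on a linear axis per gene. Dots are single libraries, bars are means of 3, and the dotted line marks 1 FPKM. FOXO1 stands at 84.69 to 152.65 FPKM in 8-cell embryos and under 1 FPKM in all 6 morula libraries.

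One gene made up most of the forkhead signal of 8-cell embryos. FOXO1, the FoxO factor best known for switching on gluconeogenesis in liver, was at 0.19, 0.66 and 0.5 FPKM in KDM6A morulae, at 0.56, 0.25 and 0.16 in control morulae and at 84.69, 120.06 and 152.65 in 8-cell embryos. Every 8-cell library lay far above every morula library. The 8-cell mean was 368 times that of control morulae and 265 times that of KDM6A morulae. The log2 difference was -6.35 (SE 0.28, adjusted p = 1.78e-07) for KDM6A morulae and -6.48 (SE 0.27, adjusted p = 3.29e-07) for control morulae, each against 8-cell embryos. FOXO1 entered these fits through the 8-cell libraries alone. FOXO1 held 63.8%, 73.2% and 78.4% of the summed forkhead FPKM of the 8-cell libraries, against at most 1.24% in any morula library. The sum over all 25 genes was 50.0, 53.3 and 47.0 FPKM in KDM6A morulae, 52.2, 46.6 and 39.3 in control morulae and 133, 164 and 195 in 8-cell embryos. Leaving FOXO1 out of the sum, it was 46.5 to 52.7 in KDM6A morulae, 39.1 to 51.7 in control morulae and 42.2 to 48.1 in 8-cell embryos, so that the groups overlapped.

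**Figure D2:**
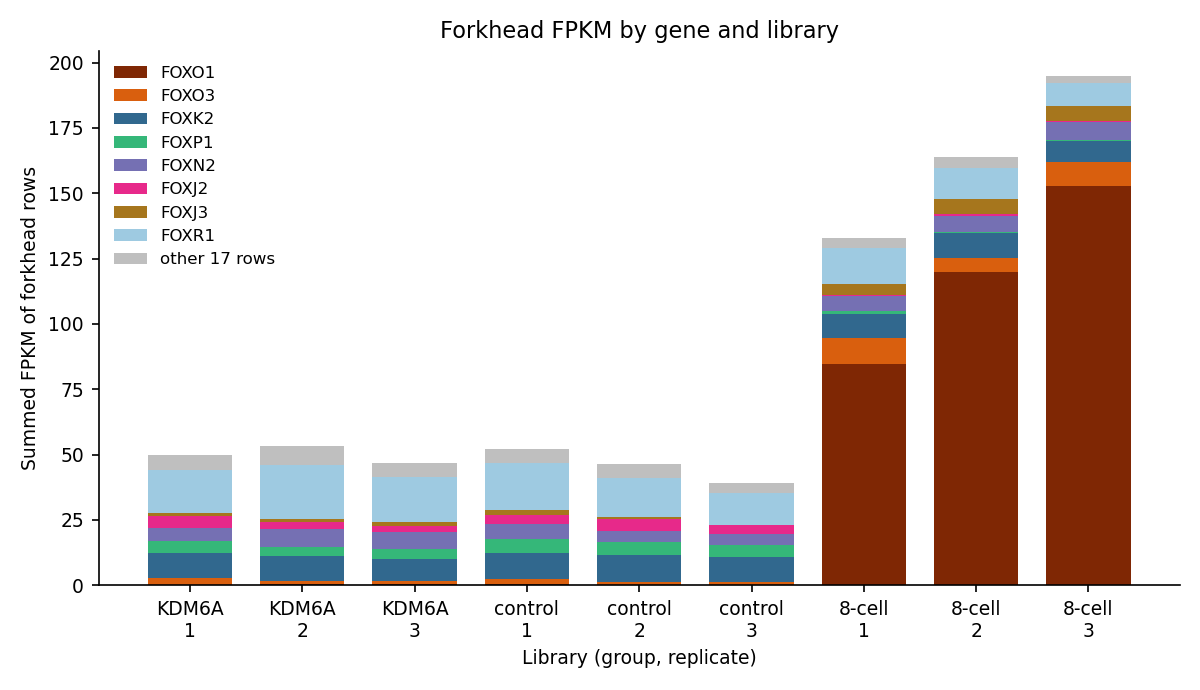
Summed FPKM of the 25 forkhead rows in each library, stacked by gene. Morula sums lie between 39.3 and 53.3 FPKM, and the 8-cell sums of 133 to 195 FPKM differ from them by the FOXO1 segment.

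FOXO3 differed between the stages in the same direction and by less. It was at 2.7, 1.04 and 1.29 FPKM in KDM6A morulae, at 1.9, 0.98 and 0.99 in control morulae and at 9.92, 5.38 and 9.46 in 8-cell embryos, with no overlap between either morula group and the 8-cell embryos. The 8-cell mean was 4.92 times that of KDM6A morulae and 6.40 times that of control morulae. FOXO3 fell in KDM6A morulae by 1.80 on the log2 scale (SE 0.32, adjusted p = 0.000599) and in control morulae by 2.00 (SE 0.29, adjusted p = 0.000194). FOXO4, an X-linked FoxO gene, was low throughout, at 0.59, 1.03 and 0.76 FPKM in KDM6A morulae, at 0.41, 0.36 and 0.34 in control morulae and at 0.25, 0.02 and 0.07 in 8-cell embryos. It was highest in KDM6A morulae and lowest in 8-cell embryos, with no overlap between any pair of groups, and it was below the filter. With no filter its limma adjusted p was 0.00793 in KDM6A and 0.0305 in control morulae, each against 8-cell embryos. FOXO1 and FOXO3 thus stood highest in the group in which FOXO4 stood lowest.

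Transcripts stored in the egg were also lower in both morula groups. The 17 oocyte and maternal markers found (BTG4, GDF9, BMP15, ZP2 and others) summed to 158 to 235 FPKM in KDM6A morulae, 52.7 to 551 in control morulae and 3935 to 9271 in 8-cell embryos. BTG4 alone made up most of each 8-cell sum, at 3360, 8658 and 5716 FPKM, and was at 8.35 to 374 FPKM in morulae. The list moved one way: of 14 tested in each morula group, 12 fell and 0 rose against 8-cell embryos. Of the 14, 2 for KDM6A and 1 for control morulae reached 1 FPKM in 1 group only and had to differ. Of the 17 markers, 11, 12 and 15 reached a mean of 1 FPKM in KDM6A morulae, control morulae and 8-cell embryos, and NOBOX was under 0.1 FPKM in all morula libraries. Within groups the order of the libraries went both ways. The control morula library with the highest marker sum had the highest FOXO1, FOXO3 and FOXJ3 of its group. The KDM6A morula library with the highest sum had the highest FOXO3 but the lowest FOXO1 and FOXJ3 of its group. The 8-cell library with the highest sum, most of it BTG4, had the highest FOXJ3 and the lowest FOXO3. Without control replicate 1, which had the highest marker sum among control morulae, FOXO1, FOXO3 and FOXJ3 fell in control morulae as well (limma, adjusted p at most 0.000418). FOXO1 passed the filter through the 8-cell libraries alone and had to differ. As that library was the highest of its group for these genes, leaving it out could only deepen their falls. The fit therefore cannot speak to stored egg RNA. The part of stored egg RNA in these differences was not tested.

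FOXM1, the cell cycle factor, was at 0.86, 1.35 and 1.44 FPKM in KDM6A morulae, at 1.56, 0.46 and 0.82 in control morulae and at 0, 0.57 and 0.08 in 8-cell embryos. KDM6A morulae lay above all 8-cell libraries, while control morulae overlapped with them. The gene was below the filter against 8-cell embryos. With no filter its difference had an adjusted p = 0.0199 for KDM6A morulae and 0.0987 for control morulae. Of 31 rows for its known targets, 30 passed the filter. FOXH1, the partner of SMAD proteins in Nodal signalling, was at 1.7, 1.88 and 0.56 FPKM in KDM6A morulae, at 0.57, 0.98 and 0.45 in control morulae and at 0.06, 0 and 0 in 8-cell embryos. All 6 morula libraries were above the 8-cell ones, and the KDM6A and control morulae overlapped. It too was below the filter, and with no filter it was past the threshold in KDM6A (adjusted p = 0.0131) and in control morulae (adjusted p = 0.00726), both against 8-cell embryos.

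FOXK2, which binds corepressors and the deubiquitinase BAP1, held in a narrow range across the groups. It was at 9.53, 9.54 and 8.12 FPKM in KDM6A morulae, at 9.9, 10.52 and 9.61 in control morulae and at 9.33, 9.46 and 7.88 in 8-cell embryos. The KDM6A and 8-cell libraries overlapped, and the 3 control libraries were above all others. Against 8-cell embryos the log2 difference was 0.03 in KDM6A morulae (95% interval -0.51 to 0.56) and 0.16 in control morulae (-0.32 to 0.64), and its sign turned in both on the TPM, quantile and median-of-ratios scales. Its close relative FOXK1 did not exceed 0.24 FPKM in any library.

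Of the FOXP genes, FOXP1 and FOXP2 differed between stages in opposite directions. FOXP1, of which a splice form is tied to pluripotency in human embryonic stem cells, was at 4.46, 3.39 and 3.99 FPKM in KDM6A morulae, at 5.2, 4.78 and 4.83 in control morulae and at 1.05, 0.36 and 0.39 in 8-cell embryos. Both morula groups were above the 8-cell libraries without overlap. FOXP1 rose in KDM6A morulae by 1.65 on the log2 scale (SE 0.25, adjusted p = 0.000217) and in control morulae by 1.92 (SE 0.24, adjusted p = 7.45e-05). FOXP2, a factor of neurons known from human speech, was at 0.02, 0.02 and 0.05 FPKM in KDM6A morulae, at 0.04, 0.06 and 0 in control morulae and at 0.8, 3.06 and 1.35 in 8-cell embryos. The 8-cell libraries were above all morula libraries. Below the filter, FOXP2 had an adjusted p = 0.0169 in KDM6A morulae and 0.0176 in control morulae, against 8-cell embryos with no filter. FOXP4 stayed between 0.12 and 0.64 FPKM, and FOXP3, the factor of regulatory T cells, did not exceed 0.06.

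FOXJ2 and FOXJ3, close relatives, likewise differed in opposite directions. FOXJ2 was at 4.84, 2.84 and 2.46 FPKM in KDM6A morulae, at 3.67, 4.79 and 3.45 in control morulae and at 0.13, 0.61 and 0.29 in 8-cell embryos. It rose in KDM6A morulae by 1.68 (SE 0.27, adjusted p = 0.00028) and in control morulae by 1.89 (SE 0.23, adjusted p = 6.57e-05), and it entered the fits through the morula libraries alone. FOXJ3, known in mouse for a role in spermatogenesis and muscle, was at 0.91, 1 and 1.38 FPKM in KDM6A morulae, at 1.77, 0.64 and 0.22 in control morulae and at 4.18, 5.86 and 5.51 in 8-cell embryos. It fell in KDM6A morulae by 1.56 on the log2 scale (SE 0.25, adjusted p = 0.000273) and in control morulae by 1.79 (SE 0.31, adjusted p = 0.000588). Neither gene overlapped between a morula group and the 8-cell embryos. The 8-cell mean of FOXJ3 was 4.73 times that of KDM6A morulae and 5.91 times that of control morulae.

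FOXR1, in zebrafish a maternal-effect gene, was the highest forkhead gene in every morula library. It was at 16.5, 20.84 and 17.4 FPKM in KDM6A morulae, at 17.95, 15.01 and 12.25 in control morulae and at 13.88, 11.75 and 9.14 in 8-cell embryos. KDM6A morulae lay above all 8-cell libraries, and control morulae overlapped with both other groups. FOXR1 rose in KDM6A morulae against 8-cell embryos by 0.62 on the log2 scale (SE 0.25, adjusted p = 0.0451). That call was lost on the TPM scale (adjusted p = 0.0904), with quantile normalization (0.198), with median-of-ratios scaling (0.185), and without any KDM6A replicate or 8-cell replicate 2 or 3 (0.0537 to 0.18). For control morulae the difference was 0.35 (95% interval -0.19 to 0.90, adjusted p = 0.218).

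FOXN2 was at 4.9, 6.78 and 6.35 FPKM in KDM6A morulae, at 5.79, 4.18 and 3.88 in control morulae and at 5.84, 6.09 and 7.06 in 8-cell embryos. Control morulae were below every 8-cell library, with a log2 difference of -0.40 (95% interval -0.93 to 0.14, adjusted p = 0.165), which was a fall on the quantile scale (adjusted p = 0.0151) and on the median-of-ratios scale (0.0364). KDM6A morulae and 8-cell embryos overlapped. FOXI3, which acts in ear and ectodermal appendage development in mouse, was at 1.35, 1.56 and 1.33 FPKM in KDM6A morulae, at 1.08, 1.95 and 0.9 in control morulae and at 0.58, 0.05 and 0.24 in 8-cell embryos. All morula libraries were above the 8-cell ones. Against 8-cell embryos it rose in KDM6A morulae by 0.92 (SE 0.22, adjusted p = 0.0038), while in control morulae, where only 2 libraries reached 1 FPKM, it had an adjusted p = 0.0323 with no filter.

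The remaining forkhead genes were near the floor. In all, 12 of the 25 stayed under 1 FPKM in all 9 libraries, and the highest value among them was 0.66 FPKM. They include the FOXA pioneer factors FOXA1, FOXA2 and FOXA3, of which FOXA3 was the highest, at up to 0.45 FPKM in KDM6A morulae, 0.63 in control morulae and 0.44 in 8-cell embryos. FOXA1 was listed at 0 in 8 libraries. FOXD3, the mouse epiblast factor, was at 0 to 0.07 FPKM in KDM6A morulae, listed at 0 in the 3 control morulae and at 0.08 to 0.27 in 8-cell embryos. FOXC2, a factor of mesenchyme and lymphatic vessels, reached 0.41 FPKM in KDM6A morulae, 0.66 in control morulae and 0.36 in 8-cell embryos. FOXE1 (thyroid), FOXF2 (gut mesenchyme), FOXN1 (thymus) and FOXS1 complete the set, together with FOXK1, FOXP3 and FOXP4 given above. A check of 30 widely used genes found none listed at 0 in any library. Their library medians were 182 to 373 FPKM, so the check does not show whether genes near the floor were missed.

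Set against the whole transcriptome, the number of forkhead genes that differed between stages lay near the background. In KDM6A morulae against 8-cell embryos, 9 were tested, of which 4 rose (FOXI3, FOXJ2, FOXP1 and FOXR1) and 3 fell (FOXO1, FOXO3 and FOXJ3), where 41.1% of all 10024 genes tested rose and 25.6% fell. In control morulae against 8-cell embryos, 8 were tested, of which 2 rose (FOXJ2 and FOXP1) and 3 fell (FOXO1, FOXO3 and FOXJ3), where 42.7% of all 10048 genes rose and 27.1% fell. The other 16 and 17 forkhead genes did not pass the filter. In KDM6A morulae, 4 of the 9 lay wholly above and 3 wholly below the 8-cell libraries, where 43.2% and 28.2% of all genes, or 71.3% in either direction, did so. In control morulae, 3 of the 8 lay wholly above and 4 wholly below, where it was 45.4% and 29.1%, or 74.5% in either direction. FOXJ2 and FOXO1 in both comparisons, and FOXI3 in the first, passed through 1 group alone and had to differ. The median log2 difference was 0.03 over the 9 and -0.12 over the 8, against 0.34 and 0.35 over all genes tested. After quantile normalization the medians over all genes were 0.04 in both comparisons, and the share of calls that were rises was 51% in place of 61.6% for KDM6A morulae and 51.1% in place of 61.2% for control morulae. Both comparisons use the same 8-cell libraries. Leaving out any of the 3 KDM6A libraries left 4 calls in place of 7, since FOXI3 and FOXJ2 then could not pass the filter and FOXR1 was no longer past the threshold.

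**Figure D3:**
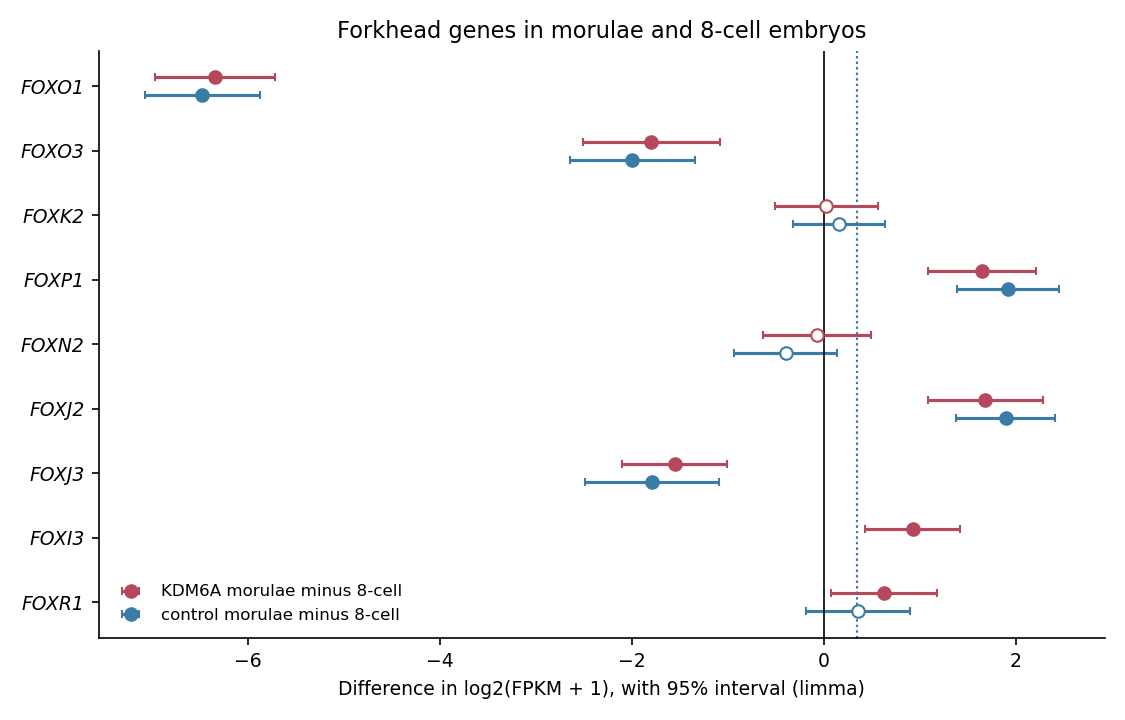
Log2(FPKM + 1) difference of each forkhead gene tested between morulae and 8-cell embryos, with 95% intervals. KDM6A morulae are drawn above control morulae, filled dots have an adjusted p under 0.05, and dotted lines mark the median of all genes (0.34 and 0.35). FOXO1 lies at -6.35 and -6.48, and FOXI3 was tested in KDM6A morulae alone.

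Cell types other than the embryo were checked through marker lists. The 19 donor fibroblast markers found summed to 465 to 628 FPKM in KDM6A morulae, 565 to 789 in control morulae and 75.1 to 127 in 8-cell embryos, a difference in the direction of FOXP1, FOXJ2 and FOXI3. SPARC, at 338 to 598 FPKM, and FN1, at 49.8 to 124, made up most of every morula sum. The list did not move one way: 5 of 11 tested rose and 3 fell in KDM6A morulae, and 4 of 10 rose and 3 fell in control morulae, with FN1, SPARC, S100A4 and THY1 rising and COL5A1, FBN1 and LUM falling in both. Of the genes tested, 3 for KDM6A and 2 for control morulae reached 1 FPKM in 1 group only and had to differ. THY1 and COL5A1 are among them. Of the 19 markers, 7, 8 and 12 reached a mean of 1 FPKM in KDM6A morulae, control morulae and 8-cell embryos. In 8-cell embryos COL1A2 (0.16, 2.68 and 0.24 FPKM), POSTN (0.02, 2.54 and 0.45) and TWIST1 (0.6, 1.89 and 0.64) did so through replicate 2 alone. LUM (2.21, 29.11 and 5.59 FPKM) and FBN1 (2.88, 10.6 and 3.05) were also highest in that library, while SPARC was highest in replicate 1 and PDGFRA in replicate 3. The fibroblast collagens COL3A1 and COL5A1, with PDGFRB and PRRX1, were under 0.1 FPKM in all morula libraries. The 12 cumulus and granulosa markers summed to 10.5 to 15.01 FPKM in KDM6A morulae, 13.3 to 16.1 in control morulae and 21.5 to 39.1 in 8-cell embryos, with 3, 3 and 4 at 1 FPKM and AMHR2 under 0.1 in all 9 libraries. For the embryo itself, 13 inner cell mass markers summed to 843 to 1036, 951 to 1127 and 1825 to 2475 FPKM, and 13 trophectoderm markers to 461 to 575, 442 to 510 and 340 to 463 FPKM, in the same order of groups. The inner cell mass list moved both ways against 8-cell embryos. Of 10 tested, 5 rose and 3 fell in KDM6A morulae, and 4 rose and 4 fell in control morulae. DPPA3 was at 374 to 635 FPKM in morulae and 1179 to 1875 in 8-cell embryos. POU5F1 went the other way, at 66.02 to 169.33 and 6.27 to 10.63 FPKM. Of 11 trophectoderm markers tested, 7 rose and 2 fell in both KDM6A and control morulae. Among them, 5 for KDM6A and 4 for control morulae reached 1 FPKM in 1 group only and had to differ. TFAP2C made up most of each 8-cell sum, at 310.12 to 425.48 FPKM, and was at 160.66 to 184.51 in morulae. PTGES was at 0.52 to 4.12 FPKM in 8-cell embryos and 101.42 to 218.01 in morulae. The part of these lists in the forkhead results was not tested.

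KDM6A-injected and control morulae did not differ in any forkhead gene by this test. Of 9 forkhead genes tested, 0 were called by limma and 0 had an unadjusted p under 0.05, where 0.123% of all 9777 genes rose and 0.0409% fell. No forkhead gene was called under any of the alternative settings either, among them the fit without KDM6A replicate 1, which called 725 genes in all in place of 16. The smallest adjusted p was 0.557, for FOXN2, with means of 6.01 ± 0.985 FPKM in KDM6A morulae and 4.62 ± 1.03 in control morulae (SD, n = 3 each). Its log2 difference was 0.32, with a 95% interval of -0.17 to 0.82. FOXR1 averaged 18.2 ± 2.29 FPKM in KDM6A morulae and 15.1 ± 2.85 in control morulae, a difference of 0.27 (-0.18 to 0.72). FOXP1 averaged 3.95 ± 0.536 and 4.94 ± 0.229 FPKM in KDM6A and control morulae, a difference of -0.27 (-0.71 to 0.18), and FOXK2 9.06 ± 0.817 and 10.01 ± 0.465, a difference of -0.13 (-0.55 to 0.29). In these last 2 genes the KDM6A libraries all lay below the control libraries, while no tested forkhead gene had all of them above. Over all genes tested, 8.61% lay below and 7.1% above without overlap. On the TPM scale FOXK2 overlapped, and over all genes 585 lay below and 929 above, in place of 842 and 694.

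The other tested genes had wider intervals. FOXO3 differed by 0.20 (-0.41 to 0.81), FOXJ3 by 0.24 (-0.41 to 0.89), FOXM1 by 0.22 (-0.35 to 0.78), FOXJ2 by -0.21 (-0.76 to 0.34) and FOXI3 by 0.09 (-0.42 to 0.60). These intervals depend on the pseudocount, which compresses genes near 1 FPKM: with a pseudocount of 0.1 in place of 1, the upper bounds were 1.97 for FOXJ3, 1.502 for FOXM1, 1.29 for FOXO3 and 1.02 for FOXI3. Of the genes below the filter, FOXO4 and FOXH1 had the largest differences in mean. For FOXO4, at 0.793 ± 0.222 FPKM in KDM6A and 0.37 ± 0.0361 in control morulae, the unadjusted p was 0.0138 and the limma adjusted p = 0.467 with no filter. FOXP4, at 0.42 to 0.58 FPKM in KDM6A and 0.28 to 0.33 in control morulae, had an unadjusted p of 0.0456 and an adjusted p of 0.521. For FOXH1, at 1.38 ± 0.716 and 0.667 ± 0.278 FPKM, the limma adjusted p was 0.598. A permutation test of 3 libraries against 3 cannot go below p = 0.1 for a single gene.

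**Figure D4:**
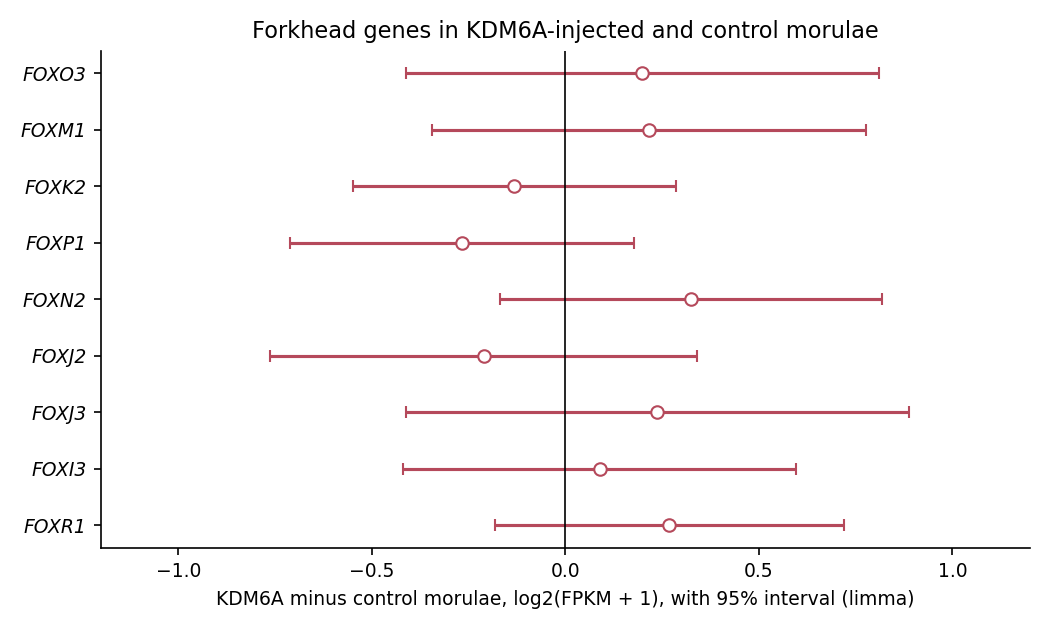
Log2(FPKM + 1) difference between KDM6A-injected and control morulae for the 9 forkhead genes tested, with 95% intervals from limma. All intervals span 0 and all dots are open (adjusted p from 0.557 to 0.901).

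The genes that act on, with or under forkhead factors were described next, from 6 lists. In KDM6A against control morulae, 0 of 24 FoxO regulators, 0 of 26 FoxO targets, 0 of 30 FOXM1 targets, 0 of 12 Nodal and activin genes, 0 of 11 FOXA partners and 0 of 15 cofactors were called by limma, with 4, 4, 2, 0, 5 and 2 at an unadjusted p under 0.05. Over all 9777 genes, 617 were higher and 627 lower at that unadjusted p. The list median farthest from 0 was that of the FOXA partners, at -0.47, against -0.01 over all genes. Trophectoderm markers, which share KRT8, KRT18 and EOMES with that list, had a median of -0.52, with 7 of 10 tested at an unadjusted p under 0.05 and 0 called.

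Between morulae and 8-cell embryos, the share of genes called over all genes was 66.7% for KDM6A and 69.8% for control morulae, with 41.1% and 42.7% rising and 25.6% and 27.1% falling. Among genes that control FoxO proteins, 54.2% and 60.9% were called. Of 24 regulators tested in KDM6A morulae, 6 rose and 7 fell, and of 23 in control morulae, 4 rose and 10 fell. XPO1, the exportin that carries FoxO proteins out of the nucleus, fell to 80.5 ± 11.2 FPKM in KDM6A and 66.9 ± 7.67 in control morulae, against 291 ± 18.6 in 8-cell embryos. STK4, a kinase that sends FoxO proteins into the nucleus, fell to 8.65 ± 2.30 FPKM in KDM6A and 6.26 ± 1.41 in control morulae, against 29.5 ± 4.27 in 8-cell embryos. YWHAQ, a 14-3-3 protein, rose to 327 ± 85.4 FPKM in KDM6A and 387 ± 43.4 in control morulae, against 92.8 ± 21.2 in 8-cell embryos. PIK3CB, a catalytic subunit of the kinase upstream of AKT, rose to 42.5 ± 3.03 and 38.4 ± 4.11 FPKM in KDM6A and control morulae, against 11.5 ± 3.39 in 8-cell embryos. The highest limma adjusted p among these 4 was 0.000234. The list median was -0.10 for KDM6A and -0.50 for control morulae, and -0.32 and -0.82 after quantile normalization.

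Known FoxO targets were called at 66.7% in KDM6A and 77.8% in control morulae, beside the 66.7% and 69.8% over all genes. In KDM6A morulae 10 of 27 rose and 8 fell, and in control morulae 10 rose and 11 fell. After quantile normalization the balance in KDM6A morulae turned, to 8 rises and 11 falls. GADD45A, a DNA damage response gene, fell to 13.8 ± 8.81 FPKM in KDM6A and 24.1 ± 1.21 in control morulae, against 139 ± 36.5 in 8-cell embryos. PPARGC1A, a coactivator of mitochondrial genes, fell to 0.253 ± 0.0611 and 0.44 ± 0.485 FPKM in KDM6A and control morulae, against 7.60 ± 2.67 in 8-cell embryos. TXNIP, an inhibitor of thioredoxin, rose to 14.7 ± 1.67 FPKM in KDM6A and 12.6 ± 1.59 in control morulae, against 1.44 ± 0.648 in 8-cell embryos. The cyclin gene CCND2, which FoxO factors repress, was at 8.38, 3.93 and 2.95 FPKM in KDM6A morulae, at 6.51, 11.62 and 4.88 in control morulae and at 0.21, 0 and 0.84 in 8-cell embryos, and it rose in both. PPARGC1A and CCND2 reached 1 FPKM at 1 stage only, as 3 genes of the list did, and had to differ. For GADD45A and TXNIP the limma adjusted p was at most 3.35e-05. The list median was 0.46 for KDM6A and -0.29 for control morulae, and 0.08 and -0.61 after quantile normalization.

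FOXM1 targets showed 9 rises and 12 falls of 30 in KDM6A morulae and 9 rises and 14 falls of 30 in control morulae. The shares called, 70% and 76.7%, lay near the 66.7% and 69.8% over all genes. CDC25A, the phosphatase that starts S phase, rose to 28.5 ± 7.26 FPKM in KDM6A and 25.4 ± 6.67 in control morulae, against 0.95 ± 1.01 in 8-cell embryos. CDK1, the kinase of mitotic entry, fell to 198 ± 35.2 and 210 ± 56.7 FPKM in KDM6A and control morulae, against 674 ± 97.6 in 8-cell embryos. Its subunit CKS1B fell to 429 ± 74.2 and 394 ± 81.4 FPKM, against 1269 ± 649. CDC25C, which activates CDK1, fell to 45.4 ± 4.77 and 45.9 ± 8.36 FPKM, against 137 ± 43.6. The adjusted p-values were at most 0.00137 (limma), and list medians were -0.43 and -0.36 for KDM6A and control morulae.

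In the Nodal and activin pathway, where FOXH1 works, 3 of 14 genes rose and 3 fell in KDM6A morulae, and 4 rose and 2 fell in control morulae. The share called was 42.9% in both, beside 66.7% and 69.8% over all genes. SMAD4, the shared SMAD, rose to 10.8 ± 1.85 FPKM in KDM6A and 13.9 ± 2.26 in control morulae, against 3.44 ± 0.295 in 8-cell embryos. GSC, a homeobox target of FOXH1 in other vertebrates, rose to 7.09 ± 0.425 and 9.57 ± 4.40 FPKM, against 2.63 ± 1.56. SMAD3, a direct partner of FOXH1, was at 0.24, 0.09 and 0.14 FPKM in KDM6A morulae, at 0.04, 0.04 and 0.12 in control morulae and at 1.05, 1.58 and 1.37 in 8-cell embryos, a fall in both. EOMES, a T-box factor, fell in both, at no more than 0.03 FPKM in KDM6A and 0.02 in control libraries, against 9.96, 5.71 and 6.26 FPKM in 8-cell embryos. The list medians of 0.16 and 0.21 for KDM6A and control morulae turned to -0.15 in both after quantile normalization. SMAD3 and EOMES, the falls of control morulae, reached 1 FPKM in 8-cell embryos only, as 3 genes of the list reached it at 1 stage only, and had to differ. For SMAD4 and GSC the limma adjusted p was at most 0.00665.

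Among partners and downstream genes of FOXA factors, 7 of 11 rose and 4 fell in KDM6A morulae, and 8 of 13 rose and 4 fell in control morulae. Over all genes, rises likewise outnumbered falls, at 61.6% and 61.2% of calls. FN1, fibronectin, rose to 66.0 ± 14.7 FPKM in KDM6A and 99.6 ± 20.9 in control morulae, against 0.617 ± 0.765 in 8-cell embryos. The simple keratin genes KRT18 and KRT8 rose to 34.2 ± 16.6 and 10.01 ± 7.31 FPKM in KDM6A morulae and 46.6 ± 17.7 and 16.9 ± 4.36 in control morulae. In 8-cell embryos, KRT18 averaged 0.253 ± 0.191 FPKM and KRT8 was at 0, 0.15 and 0.53. CXCR4, a chemokine receptor, fell to 3.75 ± 1.30 and 2.37 ± 0.846 FPKM in KDM6A and control morulae, against 63.0 ± 20.9 in 8-cell embryos. The keratins also mark trophectoderm and FN1 marks fibroblasts, and GSC and EOMES stand in this list too. Of the genes tested, 5 for KDM6A and 6 for control morulae reached 1 FPKM in 1 group only and had to differ. The keratins are among them. For FN1 and CXCR4 the limma adjusted p was at most 4.73e-06. Without KDM6A replicate 1, 4 of 8 tested rose and 4 fell, and without control replicate 1, 3 of 8 rose and 4 fell, with a list median of -1.02 in place of 1.44. In these fits, genes at 1 FPKM in morulae alone, such as the keratins, could not pass the filter. Genes at 1 FPKM in 8-cell embryos alone still could. The set of genes tested and the libraries thus changed together, and their parts in the change of balance were not tested. No other replicate was left out for the lists.

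Cofactors of FOXP, FOXK and FOXN proteins showed 4 rises and 5 falls of 15 in KDM6A morulae and 6 rises and 5 falls of 16 in control morulae. HDAC1, a histone deacetylase, rose to 156 ± 13.3 FPKM in KDM6A and 163 ± 19.7 in control morulae, against 44.1 ± 9.39 in 8-cell embryos, and CTBP2, a corepressor, to 23.1 ± 4.15 and 31.6 ± 5.31, against 8.82 ± 3.06. EP300, a histone acetyltransferase, fell to 21.2 ± 8.25 FPKM in KDM6A and 13.0 ± 1.92 in control morulae, against 39.5 ± 7.75 in 8-cell embryos. GATAD2B, a subunit of the NuRD complex, fell to 1.75 ± 0.752 and 0.917 ± 0.308 FPKM, against 5.17 ± 1.68. Adjusted p-values were at most 0.0219 (limma). The share of tested genes called was 60% in KDM6A and 68.8% in control morulae, where it was 66.7% and 69.8% over all genes, so the list stood near the background. Across the 6 lists, shares called ran from 42.9% to 100% in KDM6A and from 42.9% to 92.3% in control morulae.

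**Figure D5:**
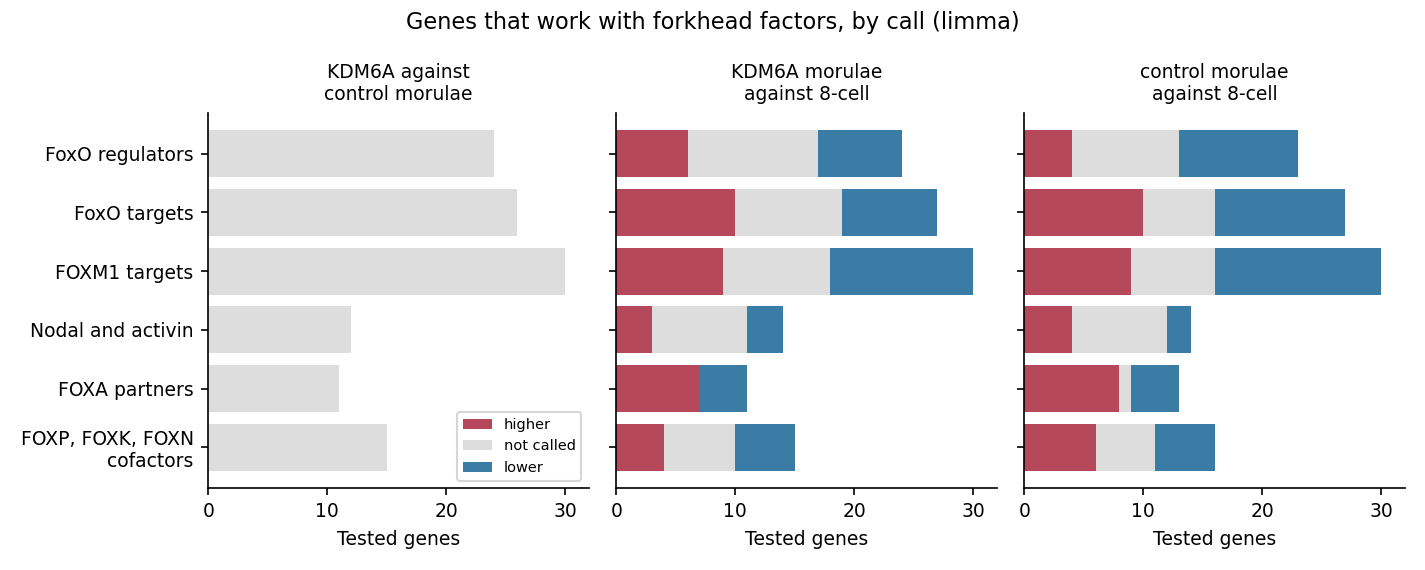
Number of tested genes in each of 6 lists that were called higher, not called or called lower (limma, adjusted p under 0.05), for the 3 comparisons. No gene of the lists was called in KDM6A against control morulae, and both comparisons with 8-cell embryos hold calls in both directions in each list.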

How the data were processed

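FPKM per gene were deposited by the authors, 1 file per library, rounded to 2 decimals. The submitters' processing notes name bcl2fastq 2.16, HISAT 0.1.6, StringTie 1.0.4, Bowtie2 2.2.5, RSEM 1.2.12 and the UMD3.1 build, whose roles and order are not known here. Whole reads could not be recovered, since among genes at 0.15 to under 1 FPKM no log2 ratio between libraries was shared by more than 8.96% of genes in any of 36 pairs (bins of 0.1). The file of control morula replicate 1 holds 3038 rows with no gene identifier, which were left out. Each pair of groups was fitted on its own 6 libraries in R 4.3.3 by limma 3.58.1, using log2(FPKM + 1), a trended prior and a filter of 1 FPKM in 3 of 6 libraries, and the procedure was tested on simulated data. Tables were made with Python 3.11.15 and pandas 2.3.3, and plots with matplotlib 3.10.9. The members, gene lists and tests were chosen with earlier results of these data known. All forkhead rows are accounted for. Genes with a group mean of at least 2 FPKM are given in every library, and values of lower ones were added after they were seen. In each list the 4 called genes with the largest difference between control morulae and 8-cell embryos are named. The alternatives changed the pseudocount (0.1 or 0.5), the filter (none or 5 FPKM), the scale (TPM, quantile or median-of-ratios), the samples (9 libraries together, or each replicate left out) or added a replicate block. For the lists, quantile and median-of-ratios scaling and the loss of morula replicate 1 were added after the data were seen.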

Additional observations from a re-analysis of the deposited data

How the results depend on the processing

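The falls of FOXO3 and FOXJ3 and the rise of FOXP1 in morulae against 8-cell embryos kept their direction and stayed past the threshold in every alternative in which the gene was tested. So did the fall of FOXO1 and the rise of FOXJ2. These genes passed the filter through 1 group alone and had to differ, so their calls are no measure of robustness. With a group reduced to 2 libraries, genes at 1 FPKM in that group alone could not be tested. In control morulae against 8-cell embryos, 10 of 25 forkhead genes were called with no filter, where 4796 of 16129 genes rose and 2840 fell. With a filter of 5 FPKM it was 2 of 5, where 3102 of 7015 genes rose and 1984 fell. In KDM6A morulae against 8-cell embryos, 11 of 25 were called with no filter, where 4532 of 16129 rose and 2653 fell. With a filter of 5 FPKM it was 3 of 5, where 2854 of 6926 rose and 1882 fell. Leaving out 1 library gave 4 calls of 7 tested in each case for control morulae, where 5286 to 6528 genes were called in all. For KDM6A morulae it gave 4 to 6 calls of 7 or 8 tested, where 4993 to 6118 genes were called in all. Detected genes were 5 in KDM6A and 5 in control morulae at a limit of 2 FPKM, and 11 in each at 0.5 FPKM, in place of 10 and 7. Over all genes, KDM6A against control morulae gave 16 calls, but 0 with no filter (809 higher and 771 lower at an unadjusted p under 0.05), 25 on the TPM scale, 28 after quantile normalization, 10 with all 9 libraries and 1 to 725 with a library left out, the highest without KDM6A replicate 1. The cause was not tested.

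FOXK2 turned in sign against 8-cell embryos on the TPM, quantile and median-of-ratios scales, at -0.081, -0.29 and -0.21 in KDM6A morulae and -0.007, -0.15 and -0.095 in control morulae. It ran from -0.05 to 0.095 in KDM6A morulae with a library left out, and FOXN2 from -0.15 to 0.049. In KDM6A against control morulae, FOXI3 ran from -0.039 to 0.28, FOXJ3 from -0.0303 to 0.30 and FOXO3 from -0.0595 to 0.38 with a library left out, none past the threshold. Libraries with the same replicate number did not deviate together, with correlations of -0.24 to 0.16 between KDM6A and control morulae, -0.087 to 0.083 for KDM6A morulae with 8-cell embryos and -0.04 to -0.0014 for control morulae with 8-cell embryos, and 2, 4 and 0 of 6 libraries correlated best with their own number. With the replicate block, 1 gene was called in KDM6A against control morulae in place of 16, and no forkhead gene. FOXR1 had an adjusted p = 0.0621 in KDM6A morulae against 8-cell embryos with the block, and no other forkhead call changed with it. Genes under 1 FPKM are limited by unknown depth.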

Other observations

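For the 3 forkhead genes with a group mean of at least 10 FPKM, the genes of most similar course over the 9 libraries were sought among 9835 others by Pearson correlation of log2(FPKM + 1), as a description. FOXR1 was closest to PRMT7, an arginine methyltransferase (r = 0.971), ANKRD45 (0.968) and UBAP2L (0.966), and 7 genes reached 0.95. PRMT7 averaged 36.4 FPKM in KDM6A morulae, 27.1 in control morulae and 16.7 in 8-cell embryos. FOXK2 was closest to ACVR2B, an activin receptor (r = 0.947), at 7.36, 8.62 and 6.65 FPKM in the same groups, and none reached 0.95. FOXO1 was closest to OTOR (r = 0.9985), SKOR1 (0.9983) and WNT5A (0.9983), and 873 genes reached 0.95. WNT5A, a secreted signalling protein, averaged 0.057 FPKM in KDM6A morulae, 0.06 in control morulae and 3.17 in 8-cell embryos. All genes are compared over the same libraries, which fall into morulae and 8-cell embryos.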
